A study of Mus musculus with 2 samples.

Results

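The NKR-P1, NKG2 and related lectin receptors are a family of C-type lectin-like surface proteins of natural killer (NK) cells and some T cells. The 10 genes described here are Klrb1a, Klrb1b, Klrb1c and Klrb1f (NKR-P1 receptors), Klrd1 (CD94), Klrc1 (NKG2A) and Klrc2 (NKG2C), Klre1, Klrk1 (NKG2D) and Klrg1. They were chosen by symbol as 10 of the 31053 genes in the deposited matrix, and all 10 were found. Together they held 37561 of the 64321006 unique molecular identifiers (UMI, 1 per captured transcript) in the cells kept.

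The study measured single-cell RNA of liver immune cells, freed by collagenase IV, sorted and captured on the 10x Genomics droplet platform. The labels name 1 WT and 1 Rcrin KO mouse sample, both 8 weeks old and both of the strain RedMUC298trTg. By the series title the WT animals carried the Rcrin flox allele and the Rcrin KO animals were conditional knockouts of the liver; the Cre driver, the cells it acts in and the sort gate are not stated in the sources used here. The deposited matrix, gene list and barcode list were identical between the 2 samples (3 of 3 file kinds, all 11192 barcodes shared), so the data were treated as 1 sample of unknown genotype. No comparison of WT with Rcrin KO was made, there is no replicate error, and no test was run.

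Of the 11192 barcodes, 10366 were kept (a minimum of 500 UMI and 200 genes and no more than 10% UMI of mitochondrial genes), with a median of 4343.5 UMI and a range of 508 to 93990. Marker genes placed 9287 of them (89.6%) in 24 classes of at least 30 cells, and no receptor described here was among the 92 gate genes. The classes used most were 383 NK cells, 57 type 1 innate lymphoid cells (ILC1), 75 cells with group 1 markers that matched neither side clearly, 2369 T cells in 11 subsets, 271 plasmacytoid dendritic cells, 48 type 1 conventional dendritic cells (cDC1), 61 dendritic cells marked by Cd209a, 591 Kupffer cells and 3125 B lineage cells. All 40 of 40 genes held back from gating were higher in their own broad group, such as all T cells. The closest was Zbtb46, at 29.3 CPM in dendritic cells and 22.3 CPM in other gated cells. These genes did not check the splits of NK cells from ILC1, among T subsets or between conventional dendritic classes. Levels are UMI per 1000000 UMI of a class (CPM) with exact Poisson 95% intervals, ratios of CPM carry exact conditional 95% intervals, and shares of cells carry exact Clopper-Pearson 95% intervals. These intervals cover counting error only, not the variation between animals or between cells.

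NKR-P1 receptors pair with C-type lectin-like ligands encoded in the same chromosomal region: Klrb1c encodes the NK1.1 antigen, an activating receptor, and Klrb1b an inhibitory receptor that recognises Clr-b, the product of Clec2d. CD94 forms a heterodimer with NKG2A, which inhibits, or with NKG2C, which activates, and both dimers read the nonclassical MHC molecule Qa-1 encoded by H2-T23. NKG2D signals through the adaptor encoded by Hcst and binds stress-induced ligands, and KLRG1 is an inhibitory receptor for cadherins. In the liver these receptors are known from NK cells, ILC1, innate-like T cells and antigen-experienced CD8 T cells.

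All 10 genes lie on mouse chromosome 6 (GENCODE M21 annotation, GRCm38). From Klrb1a (chr6:128609227-128623533, minus strand) to Klrc1 (chr6:129666015-129678973, minus strand), 9 of them span 1069747 bases, and Klrg1 (chr6:122270596-122282882, minus strand) lies 6326345 bases before Klrb1a. Promoter windows of 250 bases before the RefSeq start were matched for 8 of the 10 members in RefSeq GRCm38.p6. The windows below are shown because Klrb1a and Klrb1c are nearly identical in 210 aligned bases (188 identical, 89.5%), and because they and those of Klrc1 and Klrk1 hold the same short motif. Capitals mark TGTGGT or its reverse complement ACCACA, the letters of a RUNX site, searched on both strands. All are written 5′ to 3′ on the gene's strand, which is minus for each.
Klrb1a promoter, chr6:128622935-128623184: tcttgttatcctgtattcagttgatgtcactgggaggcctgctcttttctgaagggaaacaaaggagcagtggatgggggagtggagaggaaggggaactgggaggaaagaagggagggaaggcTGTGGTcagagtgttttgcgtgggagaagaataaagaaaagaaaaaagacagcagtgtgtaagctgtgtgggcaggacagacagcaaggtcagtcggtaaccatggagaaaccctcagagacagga
Klrb1c promoter, chr6:128788642-128788891: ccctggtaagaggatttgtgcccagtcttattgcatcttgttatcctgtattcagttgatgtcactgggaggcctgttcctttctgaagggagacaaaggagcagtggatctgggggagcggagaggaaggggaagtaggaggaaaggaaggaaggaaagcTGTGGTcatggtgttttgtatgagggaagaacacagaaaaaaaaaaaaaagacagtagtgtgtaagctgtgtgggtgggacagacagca
Klrc1 promoter, chr6:129678974-129679223: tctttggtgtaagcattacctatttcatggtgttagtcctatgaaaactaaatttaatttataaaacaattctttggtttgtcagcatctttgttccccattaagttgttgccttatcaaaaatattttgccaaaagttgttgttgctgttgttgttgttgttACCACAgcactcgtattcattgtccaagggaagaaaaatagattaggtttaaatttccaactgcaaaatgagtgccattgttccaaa
Klrk1 promoter, chr6:129623865-129624114: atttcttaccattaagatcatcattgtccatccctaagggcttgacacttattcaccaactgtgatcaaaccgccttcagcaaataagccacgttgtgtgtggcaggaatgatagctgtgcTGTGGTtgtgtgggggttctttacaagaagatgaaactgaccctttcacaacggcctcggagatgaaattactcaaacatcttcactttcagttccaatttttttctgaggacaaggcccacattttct
The GENCODE spans of Klrb1a and Klrb1c reach further upstream than these RefSeq starts, so both windows lie inside the spans of their genes. The motif lay 126 bases before the RefSeq start in Klrb1a, 89 in Klrb1c, 87 in Klrc1 and 129 in Klrk1. In the first listed window of each gene it occurred in 6 of the 8 matched members (also Klrc2 and Klre1), against 14.05% of 32851 windows of the same length over all genes. A T-box core, TCACAC or GTGTGA, occurred in 0 of those 8 windows and in 12.3% of all windows. The counts depend on the window taken: a second listed window of Klre1 held a T-box core 42 bases before its start and no RUNX letters. These matches describe letters only.

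Some members share sequence, which bears on how UMI could be assigned between them. Of the 50-base words in the last 400 bases of annotated Klrc1 transcripts, 57.5% also occur in Klrc2 or Klrc3, while 15.1% of those of Klrc2 occur in its relatives. For Klrb1b, 21.7% of such words occur elsewhere, mostly in Gm44511, an annotated gene that overlaps Klrb1b and Klrb1c on the same strand. Values of Klrc1 against Klrc2, and among Klrb1a, Klrb1b and Klrb1c, are therefore uncertain where reads could be split. No such words were shared for Klrb1f, Klrd1, Klrk1 or Klrg1.

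The receptors were highest in group 1 innate lymphocytes, and there ILC1 carried more Klrb1b and Klrc1 and almost no Klrg1. Klrb1b measured 626 CPM in ILC1 (95% interval 540 to 722, 190 UMI) and 176 CPM in NK cells (291 UMI), a ratio of 3.56 (2.95 to 4.29). Klrc1 measured 735 CPM in ILC1 (641 to 838) and 294 CPM in NK cells, a ratio of 2.50 (2.12 to 2.94). Both intervals lie wholly above 2-fold.

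Klrg1, the inhibitory cadherin receptor, ran the other way. It had 1 UMI among the 57 ILC1 (3.29 CPM) and 377 UMI among the 383 NK cells (228 CPM, 205 to 252), so that NK cells stood 69.2 times higher, with a counting interval of 12.3 to 2740.4. A Klrg1 UMI was found in 50.9% of NK cells and 1.75% of ILC1. When every cell was thinned to 1000 UMI the shares were 19.3% and 0%, the latter allowing up to 5.26% of cells by a count of 3 (Clopper-Pearson upper limit 6.27%). Klrg1, which the gate did not use, was thus higher in NK cells both in level and in the share of cells with a UMI.

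The remaining 7 members differed less between ILC1 and NK cells. Klrb1f stood at 240.5 CPM in ILC1 and 128 in NK cells (ratio 1.88, 1.42 to 2.46), and Klrc2 at 599.6 and 460 CPM (1.30, 1.10 to 1.53). Klre1, which encodes a partner chain of the KLRI receptors, was at 497 CPM in ILC1 and 764 in NK cells (0.651, 0.547 to 0.772). The intervals of these 3 exclude 1. Those of Klrb1a (1.07, 0.773 to 1.46), Klrb1c (0.923, 0.770 to 1.10), Klrd1 (0.876, 0.754 to 1.01) and Klrk1 (1.10, 0.945 to 1.27) include it.

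With 1 CPM added to each level, 2 of 10 members were at least 2-fold higher in ILC1 (Klrb1b and Klrc1), as were 10.0% of the 7883 genes with at least 10 CPM in either class. In the other direction 1 member (Klrg1) was at least 2-fold higher in NK cells, against 8.58% of genes. Klrg1 reached 10 CPM in NK cells alone, and the other 9 members in both classes. The median log2 ratio of ILC1 over NK was 0.12 over the 10 members and 0.06 over all genes tested. Thinned to 1000 UMI per cell, 3 members were 2-fold higher in ILC1 and 2 in NK cells; Klrb1f (log2 1.08) and Klre1 (log2 -1.05, ILC1 over NK) were the additions. Median depth was 4642 UMI in ILC1 and 3887 in NK cells, and the summed level of 6 T cell gate markers was 19.8 CPM in ILC1 and 44.1 CPM in NK cells, against 2134 CPM in naive-type CD8 T cells; the gate itself holds these markers low. The 4 T cell genes held back from gating (Bcl11b, Lat, Trbc2 and Cd247), all 4 with UMI in both classes, summed to 876 CPM in ILC1, 369 in NK cells and 395 in unresolved group 1 cells, against 1770.5 to 2453 CPM in the T classes. Their part in the differences between ILC1 and NK cells was not tested.

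**Figure D1:**
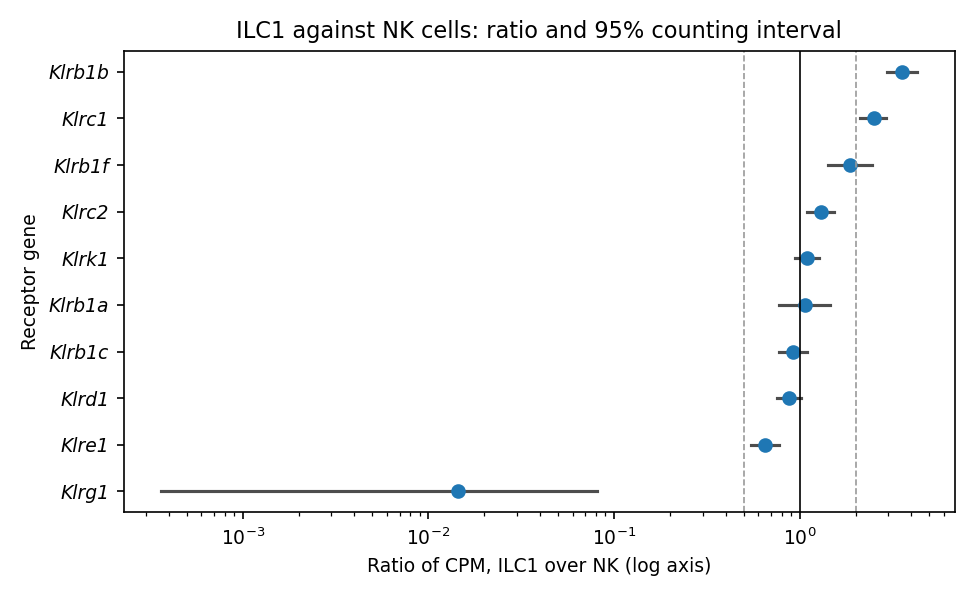
Ratio of CPM in ILC1 over NK cells for each of the 10 receptors on a log axis, with exact conditional 95% intervals that cover counting error only; dashed lines mark 0.5 and 2. Klrb1b (3.56) and Klrc1 (2.50) lie above the upper line with their whole intervals, and Klrg1 (0.0145) lies far below the lower line.

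Genes of the wider receptor system were also compared between ILC1 and NK cells. Of a list of 35 related genes (near relatives, adaptors, phosphatases, kinases and ligands), 33 were measured and 19 reached 10 CPM in either class. At least 2-fold higher were 1 of the 19 in ILC1 and 4 in NK cells, against 10.0% and 8.58% of all genes. The first was Clec2i, encoding an NKR-P1 ligand (32.9 against 11.5 CPM). Klri2, a lectin receptor that pairs with Klre1 (247 against 79.1 CPM), Cd247, the zeta chain adaptor (155 against 36.2), and Syk, a kinase of activating receptors (145 against 56.0), were 3 of those higher in NK cells. The other was Klrc3, with 17 UMI in NK cells and 1 in ILC1, a ratio of 3.12 whose interval includes 1 (0.489 to 130). The adaptor genes of the activating members were high on both sides, with Hcst at 336 CPM in ILC1 and 261 CPM in NK cells.

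**Figure D2:**
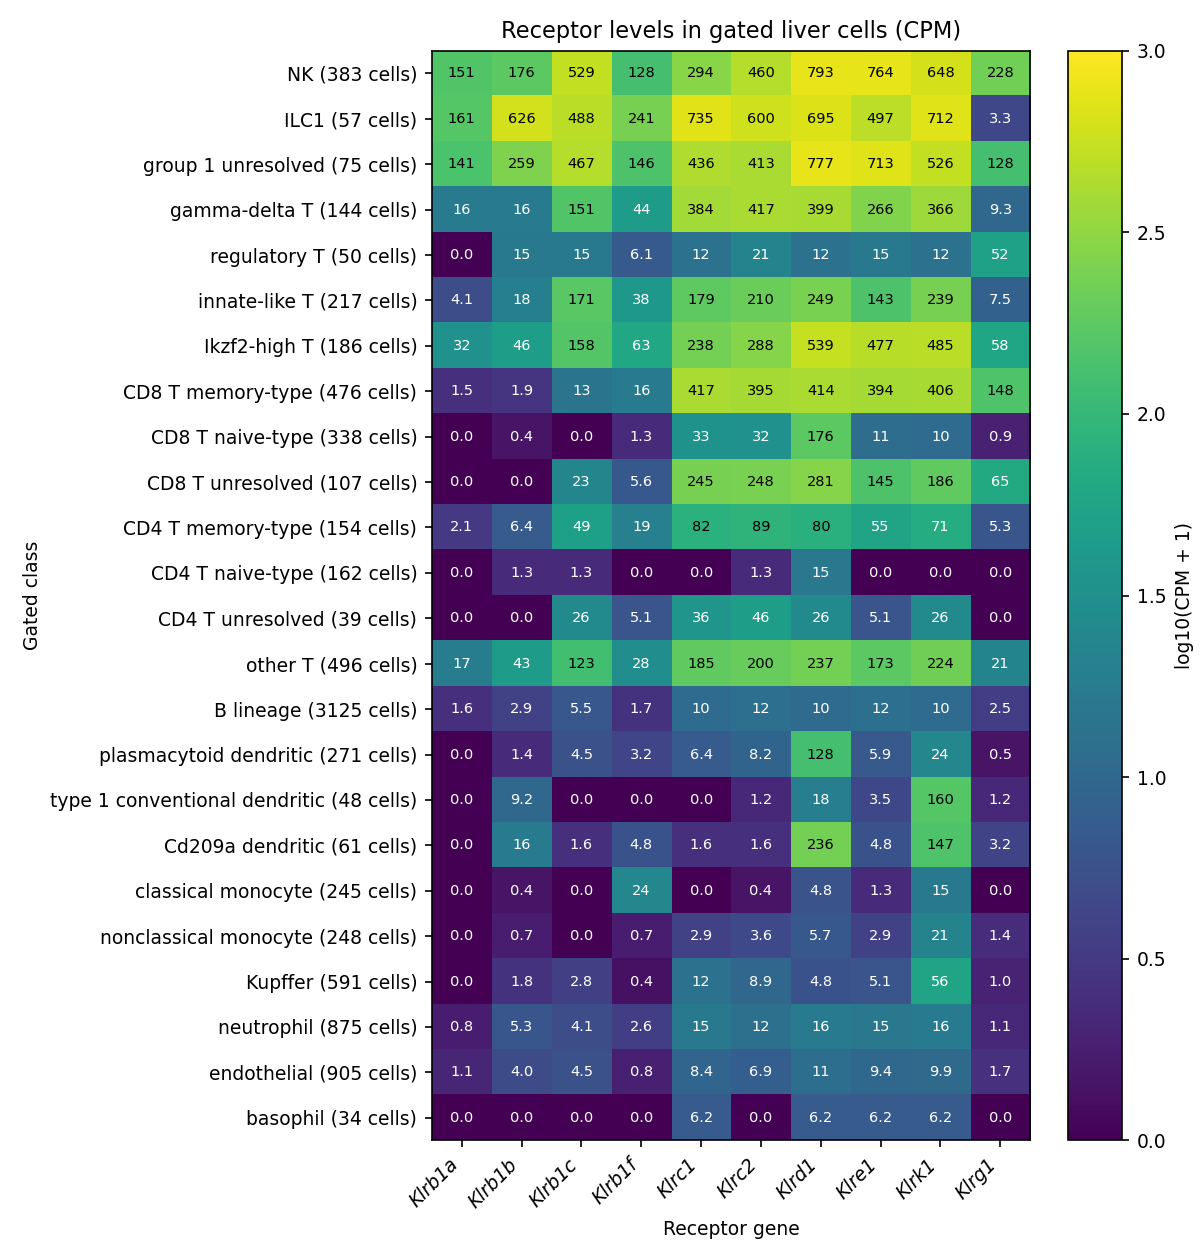
Heat map of the level of each of the 10 receptors in each of the 24 gated classes, which are labelled with their number of cells. Colour is on a log scale and the printed values are CPM. The highest level of every member is in ILC1 (6 members) or NK cells (4 members). Memory-type CD8 T cells hold Klrc1, Klrc2, Klrd1, Klre1, Klrk1 and Klrg1. Klrd1 appears in plasmacytoid and Cd209a dendritic cells, and Klrk1 in cDC1 and Cd209a dendritic cells.

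Across all 24 classes the order of the levels differed by receptor. Klrb1a was highest in ILC1 (161 CPM), NK cells (151) and unresolved group 1 cells (141), neighbours that counting error does not separate, and fell to 32.3 CPM in the next class, Ikzf2-high T cells. Klrb1b had ILC1 alone at the top, 2.42 times above unresolved group 1 cells (1.89 to 3.11). Klrb1c stood at 529 CPM in NK cells, 488 in ILC1 and 467 in unresolved group 1 cells, not separated, and 2.74 times lower in innate-like T cells (interval 2.25 to 3.33).

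For Klrc1 and Klrc2 some T classes came close to or above NK cells, while Klrd1 and Klrk1 were higher in NK cells than in any T class. Klrc2 was at 460 CPM in NK cells and 417 CPM in gamma-delta T cells (ratio 1.10, 0.973 to 1.26). Klrc1 in NK cells (294 CPM) was below memory-type CD8 T cells (417 CPM), at a ratio of 0.705 (0.632 to 0.785), and below gamma-delta T cells (384 CPM). Klrd1 in NK cells (793 CPM, 751 to 837.5) was not separated from unresolved group 1 cells (777 CPM) or they from ILC1 (695 CPM). It stood 1.92 times above memory-type CD8 T cells (1.77 to 2.08). Klrk1 was at 712 CPM in ILC1 and 648 CPM in NK cells and at 485, 406 and 366 CPM in Ikzf2-high, memory-type CD8 and gamma-delta T cells. Klrg1 had NK cells first, 1.54 times above memory-type CD8 T cells (1.33 to 1.77), and memory-type CD8 T cells second without separation from unresolved group 1 cells (1.16, 0.860 to 1.59).

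In CD8 T cells the receptors separated memory-type from naive-type cells, which were gated on other genes. Klrc1 measured 417 CPM in the 476 memory-type cells and 33.5 CPM in the 338 naive-type cells (1099 and 75 UMI), a ratio of 12.5 (9.86 to 16.0). Klre1 was at 394 and 10.7 CPM (36.8, 24.6 to 57.7), Klrk1 at 406 and 10.3 CPM (39.6, 26.2 to 62.7), and Klrg1 at 148 and 0.893 CPM (391 and 2 UMI, ratio 166 with an interval of 45.7 to 1378). Klrc2, at 395 and 31.7 CPM, gave a ratio of 12.5 (9.79 to 16.1), as for Klrc1. The low naive-type counts, 24 UMI of Klre1 and 23 of Klrk1, set the size of these ratios: the log2 ratio of Klre1 was 5.08 and became 8.93 after thinning to 1000 UMI, and that of Klrk1 was 5.18 and became 7.15 with a 5% mitochondrial limit.

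Klrd1 differed less, and naive-type CD8 T cells held it too. It was at 414 CPM in memory-type and 176 CPM in naive-type cells (1090 and 394 UMI), a ratio of 2.35 (2.09 to 2.65). The NKR-P1 members were low on both sides: Klrb1c had 35 UMI in memory-type cells (13.3 CPM) and 0 in naive-type cells, at least 9.92-fold higher when the count of 0 is read as 3 UMI (exact conditional lower limit 7.65). Klrb1f had 42 and 3 UMI (15.9 and 1.34 CPM, ratio 11.9, 3.80 to 60.04), and Klrb1a and Klrb1b stayed under 10 CPM in both.

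At least 10 CPM in either class were reached by 8 members, and these 8 were at least 2-fold higher in memory-type cells, against 15.7% of 7722 genes; 3.90% of genes were at least 2-fold lower. Klrb1c, Klrb1f and Klrg1 reached 10 CPM in memory-type cells alone, which fixes or favours their direction, so the count is a description. The median log2 ratio was 3.60 over all 10 members and 0.31 over all genes tested. With totals that leave out mitochondrial, ribosomal protein and haemoglobin genes the median of all genes moved to -0.09, genes split 851 higher to 826 lower in place of 1211 to 301, and Klrd1 fell to a log2 ratio of 0.84, which left 7 members. Of 16 related genes tested here, 4 were higher in memory-type cells (Tyrobp, Fcer1g, Inpp5d and Ulbp1) and 0 lower; the adaptor gene Tyrobp was at 53.9 CPM in them and 2510 CPM in NK cells.

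Outside the CD8 subsets, innate-like, Ikzf2-high and gamma-delta T cells held Klrb1c, and they differed in the NKG2 genes. Klrb1c was at 171 CPM in 217 innate-like T cells (gated on Zbtb16), 158 CPM in 186 Ikzf2-high T cells and 151 CPM in 144 gamma-delta T cells, levels that counting error does not separate, and at 13.3 CPM in memory-type CD8 T cells. Klrb1c was not particular to these subsets. The 496 T cells of no named subset were at 123 CPM, not separated from gamma-delta T cells (1.23, 0.990 to 1.52). Memory-type CD4 T cells were at 48.8 CPM. Innate-like T cells stood 12.8 times above memory-type CD8 T cells (8.99 to 18.9). Thinned to 1000 UMI, 18.9% of innate-like and 1.05% of memory-type CD8 T cells had a Klrb1c UMI.

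In innate-like T cells Klrk1 was lower than in memory-type CD8 T cells (239 against 406 CPM, ratio 0.588), but in Ikzf2-high T cells it was higher (485 CPM, 1.19, 1.07 to 1.33), and the interval of gamma-delta T cells included 1 (366 CPM, 0.902, 0.793 to 1.02). Klrc1 (179 against 417 CPM, 0.430, 0.375 to 0.493) and Klrd1 (249 against 414 CPM, 0.601, 0.532 to 0.677) were also lower in innate-like T cells, while in gamma-delta T cells the intervals included 1 (Klrc1 0.921, 0.811 to 1.04; Klrd1 0.965, 0.852 to 1.09). Klrg1 was at 7.53 CPM in innate-like and 9.34 CPM in gamma-delta T cells against 148 CPM in memory-type CD8 T cells, ratios of 0.0508 (0.0251 to 0.0918) and 0.0629 (0.0270 to 0.125). Ikzf2-high T cells held genes of both groups, with Klrd1 at 539 CPM, 1.30 times the memory-type CD8 level (1.18 to 1.44), Klrb1a at 32.3 CPM and Klrb1b at 45.5 CPM.

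Naive-type CD4 T cells were nearly empty of these receptors, with 0 UMI for Klrb1a, Klrb1f, Klrc1, Klre1, Klrk1 and Klrg1 in 162 cells. A count of 0 there allows up to 3.76 CPM. Klrd1 was their highest, at 15.0 CPM (12 UMI), and innate-like T cells exceeded it 16.5 times (9.34 to 32.3). Klrk1 and Klrc1 were at least 63.5-fold and at least 47.7-fold higher in innate-like T cells when the count of 0 is read as 3 UMI; the exact conditional lower limits are 51.4 and 38.5.

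In that comparison 8 members reached 10 CPM in either class and were at least 2-fold higher in innate-like T cells, against 16.1% of 7790 genes, with 5.97% of genes lower. All of them but Klrd1 reached 10 CPM in innate-like T cells alone, which fixed their direction, so nothing is read from the count. The median log2 ratio was 5.77 over all 10 members and 0.20 over all genes. Of 17 related genes, 5 were higher (Tyrobp, Fcer1g, Ptpn6, Inpp5d and Zap70) and Cd247 was lower (86.3 against 231 CPM).

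Regulatory T cells held little of any NKG2 gene, but Klrg1 was found there. It was at 51.6 CPM (17 UMI in 50 cells) in regulatory and 5.30 CPM (5 UMI) in memory-type CD4 T cells, a ratio of 9.73 (3.45 to 33.7). A UMI was seen in 16.0% of regulatory T cells, and in 0% at 1000 UMI per cell, which allows up to 6% of cells by a count of 3 (Clopper-Pearson upper limit 7.11%). Klrc1 and Klrd1 were lower in regulatory than in memory-type CD4 T cells, at 12.1 against 81.7 and 79.5 CPM, with ratios of 0.149 (0.0395 to 0.396) and 0.153 (0.0405 to 0.407).

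Klrd1 was found in several classes in which its NKG2 partners were far lower. In naive-type CD8 T cells it stood at 176 CPM (159 to 194), in plasmacytoid dendritic cells at 128 CPM (113 to 143) and in Cd209a dendritic cells at 236 CPM (199.8 to 277), against 10.3 CPM in B lineage cells and 15.0 CPM in naive-type CD4 T cells. The ratios over B lineage cells were 17.1 (14.02 to 21.1), 12.4 (10.1 to 15.4) and 23.02 (18.1 to 29.4). In the same classes Klrc1 was at 33.5, 6.36 and 1.59 CPM against 10.2 CPM in B lineage cells. Klrc2 was at 31.7, 8.18 and 1.59 CPM against 11.6 CPM. Naive-type CD8 T cells were thus above B lineage cells in both, with ratios of 3.29 (2.44 to 4.40) and 2.73 (2.03 to 3.65).

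Detection showed the same order after thinning. A Klrd1 UMI was found in 58.6% of naive-type CD8 T cells, 56.8% of plasmacytoid and 55.7% of Cd209a dendritic cells, and in 2.05% of B lineage cells, at median depths of 6500.5, 8027, 9418 and 3281 UMI. At 1000 UMI per cell the shares were 14.8%, 13.4%, 22.95% and 0.481%, and 2.47% in naive-type CD4 T cells. The 9 gate markers of group 1 lymphocytes summed to 33.9, 12.3, 9.51 and 12.0 CPM in these 4 classes, against 1396 CPM in NK cells, and the NK check genes Prf1, Gzma, Nkg7 and Xcl1 to 525, 131, 23.8 and 206 CPM against 16020 in NK cells. The part of other cells' RNA in the naive-type CD8 T level was not tested. With totals that leave out mitochondrial, ribosomal protein and haemoglobin genes, Klrd1 in naive-type CD8 T cells was at 303 CPM.

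**Figure D3:**
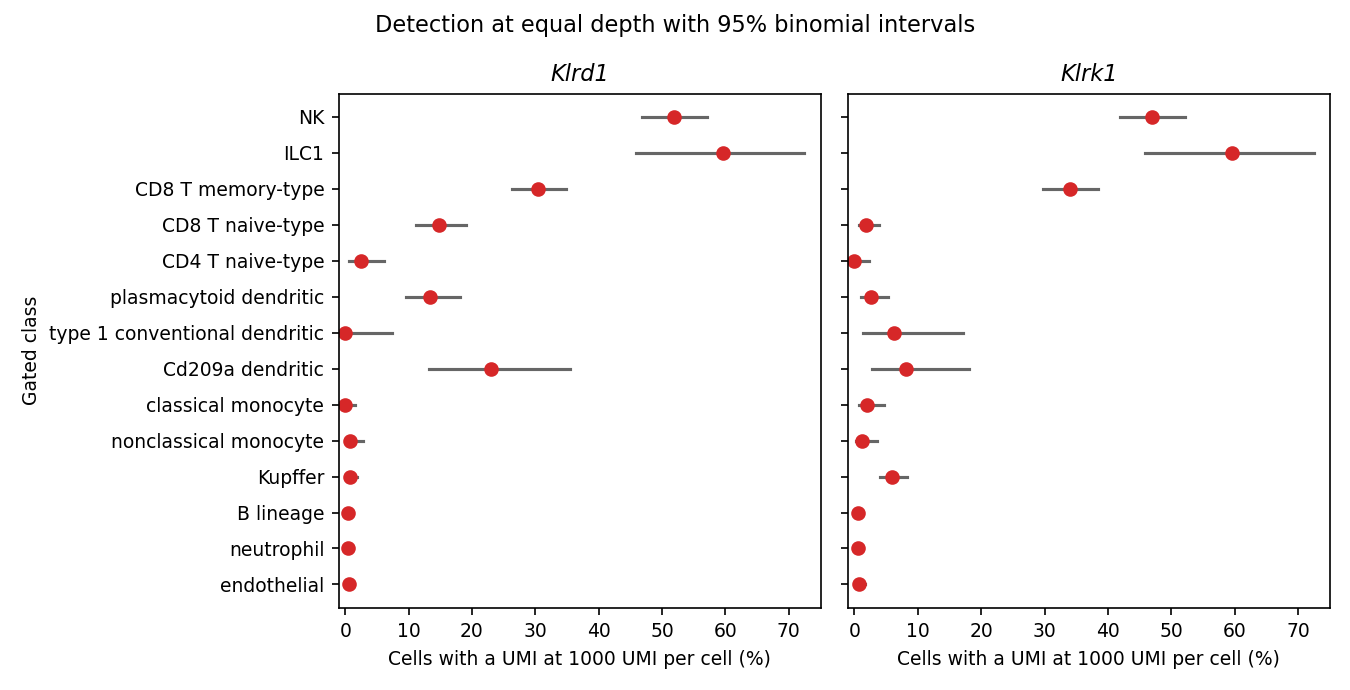
Percentage of cells with at least 1 UMI of Klrd1 and of Klrk1 after each cell was thinned to 1000 UMI, in 14 classes, with exact 95% intervals that cover counting error only. Klrd1 is found in 14.8% of naive-type CD8 T cells, 13.4% of plasmacytoid and 22.95% of Cd209a dendritic cells, and Klrk1 in 5.96% of Kupffer cells, against 0.481% and 0.513% of B lineage cells.

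Klrk1, encoding NKG2D, had another distribution among myeloid cells. It was at 159.9 CPM in cDC1 (134 to 189), 147 CPM in Cd209a dendritic cells (119 to 181) and 55.9 CPM in Kupffer cells (50.8 to 61.3), against 10.3 CPM in B lineage cells. The ratios over B lineage cells were 15.6 (12.2 to 19.95), 14.4 (10.9 to 18.9) and 5.45 (4.47 to 6.67). Plasmacytoid dendritic cells (23.6 CPM, 2.303, 1.64 to 3.20) and nonclassical monocytes (20.7 CPM, 2.02, 1.30 to 3.03) were nearer to B lineage cells, and the interval of classical monocytes included 1 (15.3 CPM, 1.49, 0.997 to 2.18).

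In Kupffer cells, the resident macrophages of the liver, the 447 Klrk1 UMI were spread over 266 of 591 cells (45.01%) with at most 5 in a cell, whereas the 130 UMI of B lineage cells lay in 57 of 3125 cells with up to 8 in a cell. In cDC1 36 of 48 cells (75%) had a Klrk1 UMI at a median depth of 17876 UMI. Thinned to 1000 UMI the cDC1 share was 6.25% and the level 62.5 CPM, which rests on 3 UMI, so it cannot be ordered against the Kupffer share of 5.96%. The T cell gate markers summed to 8.05 CPM in cDC1, 12.7 in Cd209a dendritic cells and 26.6 in Kupffer cells against 41.4 in B lineage cells, with the gate holding them low. The T cell genes held back from gating summed to 1.15, 49.1 and 25.4 CPM against 47.4 in B lineage cells, so Cd209a dendritic cells were not below B lineage cells in these. The same NK check genes summed to 8.05, 23.8 and 80.0 CPM against 206 CPM in B lineage cells and 16020 in NK cells.

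The ratio of Klrk1 UMI to Klrd1 UMI therefore changed from class to class. Per Klrd1 UMI there were 0.816 Klrk1 UMI in NK cells (0.752 to 0.886), 1.02 in ILC1, 0.983 in memory-type CD8 T cells and 1 in B lineage cells (0.778 to 1.29). The ratio was 0.0584 in naive-type CD8 T cells (0.0366 to 0.0889) and 0.185 in plasmacytoid dendritic cells (0.135 to 0.2495), and 8.69 in cDC1 (5.16 to 15.6) and 11.8 in Kupffer cells (8.44 to 16.8). Classical monocytes (3.18, 1.58 to 6.95) and nonclassical monocytes (3.625, 1.62 to 9.18) were also above 1. Cd209a dendritic cells, which held both genes, were at 0.624 (0.476 to 0.814). Naive-type CD8 T cells and plasmacytoid dendritic cells thus held mostly Klrd1 of these 2 genes. In cDC1 and Kupffer cells it was mostly Klrk1. Both monocyte classes had more Klrk1 than Klrd1 UMI, but at low levels. Klrk1 was at 15.3 CPM in classical and 20.7 CPM in nonclassical monocytes, near the 15.8 CPM of neutrophils. Klrd1 was at 4.81 and 5.71 CPM in them, against 10.3 CPM in B lineage cells. Neutrophils (1) and endothelial cells (0.878) were near the ratios of NK cells and memory-type CD8 T cells.

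**Figure D4:**
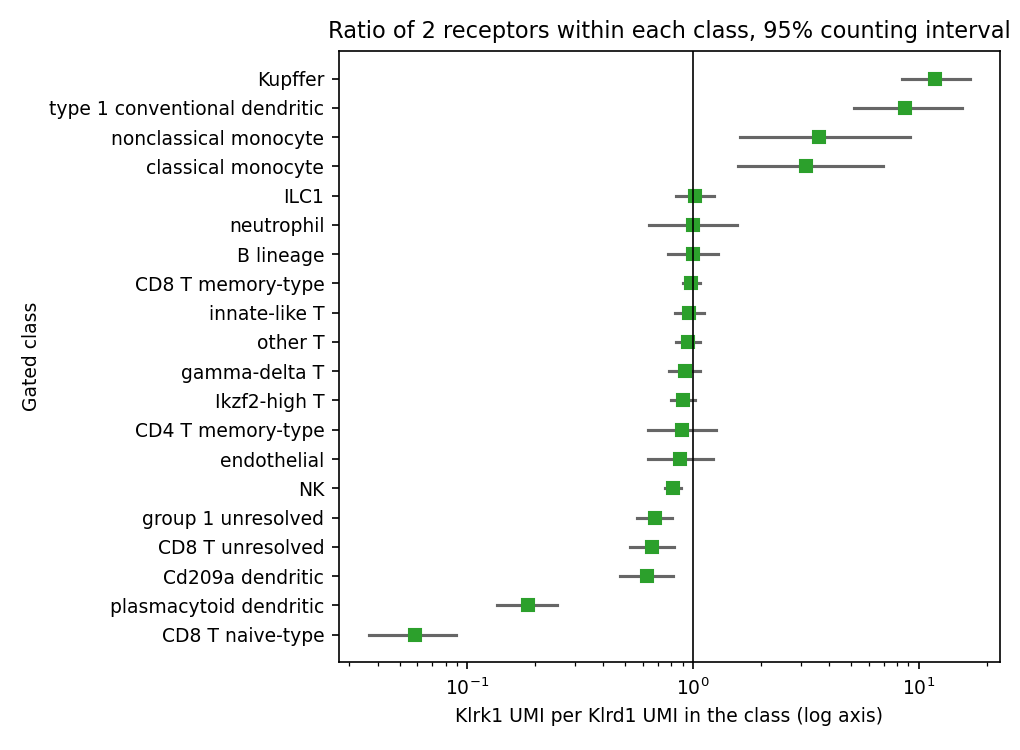
Klrk1 UMI per Klrd1 UMI in the 20 classes with at least 20 UMI of the pair, on a log axis, with exact 95% intervals that cover counting error only. Most lymphocyte classes lie near 1. Naive-type CD8 T cells (0.0584) and plasmacytoid dendritic cells (0.185) lie far below. Cd209a dendritic cells (0.624), unresolved CD8 T cells (0.66), unresolved group 1 cells (0.677) and NK cells (0.816) also have intervals below 1. Kupffer cells (11.8), cDC1 (8.69), classical monocytes (3.18) and nonclassical monocytes (3.625) lie above.

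The adaptor genes that NKG2D and NKG2C use were measured in the same cells. Hcst was at 10.4 CPM in cDC1, 25.4 in Cd209a dendritic cells and 51.0 in Kupffer cells, against 23.9 in B lineage cells and 372 in memory-type CD8 T cells. Tyrobp was at 3804 CPM in plasmacytoid dendritic cells, 2116 in Kupffer cells and 537 in cDC1. Of the myeloid classes with Klrk1, Kupffer cells were thus above B lineage cells in Hcst, Cd209a dendritic cells near them and cDC1 below.

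Set against classical monocytes, Cd209a dendritic cells were higher in 3 of 4 members tested and lower in 1. Klrd1 was at 236 against 4.81 CPM (149 and 11 UMI, ratio 49.1, 26.6 to 100.4), Klrk1 at 147 against 15.3 CPM (9.62, 6.46 to 14.6) and Klrb1b at 15.9 against 0.438 CPM (10 and 1 UMI, 36.2, 5.15 to 1572). Over all 8025 genes tested, 9.68% were at least 2-fold higher and 10.7% at least 2-fold lower. Of the 4 members, Klrk1 alone reached 10 CPM in both classes, so the direction of the others was fixed or favoured by that minimum. The median log2 ratio was 1.37 over all 10 members and 0.01 over all genes.

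Klrb1f was the member that was lower in Cd209a dendritic cells, and classical monocytes were the myeloid class in which it passed 10 CPM. It was at 23.6 CPM in classical monocytes (54 UMI in 31 of 245 cells, 12.7%), 4.76 CPM in Cd209a dendritic cells (3 UMI) and 0.713 CPM in nonclassical monocytes (1 UMI). The ratio of Cd209a dendritic cells to classical monocytes was 0.201 (0.0402 to 0.620) and that of classical to nonclassical monocytes 33.1 (5.70 to 1333). At 1000 UMI per cell 2.05% of classical monocytes and 0.0321% of B lineage cells had a Klrb1f UMI. The other 3 NKR-P1 genes had 1 UMI among them in classical monocytes, a Klrb1b UMI. Klrb1f overlaps the antisense genes Gm44000 and Gm43992, and the sources used here do not say whether counting used strand.

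Klrb1b itself had few UMI in conventional dendritic cells. It had 10 UMI in Cd209a dendritic cells (15.9 CPM), 8 in cDC1 (9.20 CPM) and 37 in B lineage cells (2.92 CPM), with ratios over B lineage cells of 5.43 (2.41 to 11.1) and 3.15 (1.27 to 6.88). Neutrophils were at 5.27 CPM (2.88 to 8.85) and endothelial cells at 3.99 CPM (2.67 to 5.73). The interval of cDC1 (3.97 to 18.1) overlaps both of these, and that of Cd209a dendritic cells (7.60 to 29.2) overlaps that of neutrophils. Thinned to 1000 UMI the cDC1 level was 0. Klrb1a had 0 UMI in all 3 dendritic classes, in both monocyte classes and in Kupffer cells.

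In B lineage cells, neutrophils and endothelial cells every member stayed under 16 CPM. The 10 members stood between 1.58 and 11.6 CPM in B lineage cells, between 0.753 and 15.8 in neutrophils and between 0.826 and 11.3 in endothelial cells. Basophils, with 34 cells, had 4 UMI over all 10 members. Kupffer cells held Klrc1 at 12.0 CPM (96 UMI in 76 cells), near the 10.2 CPM of B lineage cells (129 UMI in 58 cells), at a ratio of 1.18 (0.896 to 1.55). These UMI lay in 12.9% of Kupffer cells, with at most 4 in a cell, and in 1.86% of B lineage cells, and at 1000 UMI per cell the shares were 0.745% and 0.577%. Over endothelial cells the ratio of Klrc1 was 1.43 (1.03 to 2.005).

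Ligand genes of these receptors were measured on the other side. Clec2d, encoding the Klrb1b ligand, was at 351 CPM in endothelial and 62.0 CPM in B lineage cells, and Clec2i at 76.8 CPM in plasmacytoid dendritic cells and 62.9 in B lineage cells against 2.75 in endothelial cells. H2-T23, encoding Qa-1, was broad, at 672 CPM in plasmacytoid dendritic cells, 522 in Kupffer cells, 473 in endothelial cells and 224 in NK cells. Cdh1, encoding the KLRG1 ligand E-cadherin, was at 315 CPM in basophils and 60.9 CPM in plasmacytoid dendritic cells, and the NKG2D ligand gene Ulbp1 at 25.3 CPM in endothelial cells.

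The balance between related receptors shifted between classes. Klrc1 UMI per Klrc2 UMI were 0.639 in NK cells (0.569 to 0.717), 1.23 in ILC1 (1.003 to 1.499) and 1.06 in memory-type CD8 T cells (0.970 to 1.15). Klrb1b per Klrb1c UMI were 0.333 in NK cells, 1.28 in ILC1 (1.03 to 1.60) and 0.108 in innate-like T cells. Klrb1a per Klrb1c UMI were 0.285 in NK cells (0.246 to 0.328) and 0.331 in ILC1, and 0.0241 in innate-like T cells (0.00876 to 0.0532). NK cells thus leaned to the NKG2C gene relative to ILC1 and memory-type CD8 T cells. Innate-like T cells held Klrb1c with little Klrb1a or Klrb1b, but were not alone in this. Klrb1b per Klrb1c UMI were 0.109 in gamma-delta and 0.130 in memory-type CD4 T cells, and Klrb1a per Klrb1c UMI 0.109 and 0.0435. Ikzf2-high T cells were higher in both, at 0.287 and 0.204. Klrb1f per Klrb1c UMI, at 0.225 in innate-like T cells, were near the 0.243 of NK cells. All of these hold within the limits of the shared sequence given above.

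Many of these receptors were seen in the same cell. With each cell thinned to 2000 UMI, ILC1 had a median of 6 of the 10 receptors with a UMI (quartiles 5 and 7), NK cells 5 (4 and 6), memory-type CD8 and Ikzf2-high T cells 3, gamma-delta T cells 2 and innate-like T cells 1. Every NK cell and ILC1 at that depth had at least 1 receptor UMI, whereas 13.8% of memory-type CD8, 65.6% of naive-type CD8 T cells and 96.0% of B lineage cells had none.

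Within memory-type CD8 T cells Klrc1 went together with Klrc2, Klrk1 and Klre1. Among 241 cells with a Klrc1 UMI at 2000 UMI, 67.2% had a Klrc2 UMI (60.9 to 73.1), against 24.8% (19.3 to 30.9) of the 230 cells without one. For Klrk1 the shares were 68.9% (62.6 to 74.7) and 30.9% (24.96 to 37.3), and for Klre1 60.6% and 29.6%. Klrd1, the partner chain, differed less, at 55.6% and 46.1%. The part of the sequence shared by Klrc1 and Klrc2 in their pairing was not tested.

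In NK cells such a grouping of Klrc1 with Klrc2 and Klrk1 was weaker in these counts. Among 133 NK cells with and 242 without a Klrc1 UMI, Klrc2 was seen in 57.9% (49.0 to 66.4) and 52.5% (46.0 to 58.9), and Klrk1 in 66.9% and 73.1%. Klrd1, seen in 79.7% (71.9 to 86.2) and 68.6% (62.3 to 74.4), was no less grouped with Klrc1 than in memory-type CD8 T cells. The cells of a class come from the same sample and are not replicates, and the difference between NK and CD8 T cells was not tested.

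**Figure D5:**
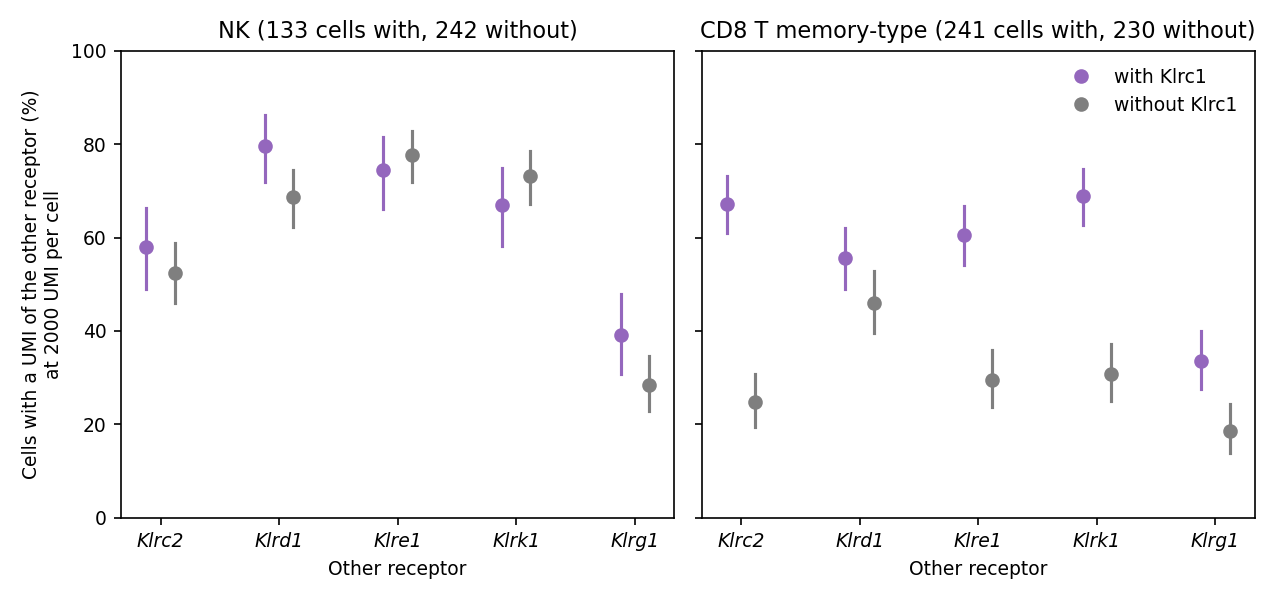
Percentage of cells with a UMI of another receptor among cells with and without a Klrc1 UMI, each cell thinned to 2000 UMI, in NK cells (133 and 242 cells) and memory-type CD8 T cells (241 and 230 cells), with exact 95% intervals. In memory-type CD8 T cells the Klrc2 share is 67.2% and 24.8%, in NK cells 57.9% and 52.5%.

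The spread over cells of a class was described by the Fano factor, the variance of UMI per cell over their mean, which is 1 for counting error alone. In 375 NK cells at 2000 UMI it was 1.12 for Klre1, 1.13 for Klrb1f and 1.14 for Klrb1c and Klrk1, and 1.53 for Klrb1a, 1.55 for Klrc1, 1.56 for Klrd1 and 1.78 for Klrb1b. In 143 gamma-delta T cells it was 1.85 for Klrk1, 2.25 for Klrd1 and 2.58 for Klrc2. At this depth Klre1, Klrb1c and Klrk1 were thus close to counting error across NK cells. Klrb1b and the CD94 and NKG2A genes were more uneven. Thinning moves the factor toward 1, so a value near 1 does not show even levels between cells.

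Across the 24 classes, Pearson's r of log2(CPM + 1) described which receptors had like patterns. The closest pair was Klrc1 with Klrc2 (r = 0.971), which share sequence, and the least alike were Klrb1b and Klrg1 (r = 0.543). Among genes other than the 10 members, Klrc1 was closest to Nkg7, a cytotoxic granule gene (r = 0.959), Klrc2 to Samd3 (0.968), and Klre1 (0.947) and Klrd1 (0.898) to the chemokine gene Ccl5. Klrb1c was closest to the chemokine gene Xcl1 (0.926), Klrb1b to its relative Klri2 (0.895), Klrb1a to Rasl12 (0.908), Klrb1f to Cpne7 (0.866), Klrk1 to Pik3r1 (0.867) and Klrg1 to Baiap3 (0.833). These classes share 1 library and differ in depth and in cell number, so the values describe likeness only.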

How the data were processed

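Single-cell RNA of mouse liver immune cells was deposited as raw UMI counts (whole numbers, not normalized) for each gene in each barcode, as the values show. Per the submitters' processing notes the authors used STAR, the mm10 assembly, Cell Ranger 2.1.1 and Seurat 2.3.4, without stated roles; per the file headers the matrix came from software version 3.0.0. No source used here says how cells were called. The files of the 2 samples were identical, and were used once.

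Counts were read in Python 3.11.15 with numpy 2.4.6, scipy 1.17.1 and pandas 2.3.3, and figures drawn with matplotlib 3.10.9. Of 11192 barcodes, 56 had under 200 genes and 778 exceeded 10% mitochondrial UMI; barcodes of at least 500 UMI within both limits were kept. A cell took the lineage with the most marker UMI, provided it had at least 2 and at least 3 times those of the next lineage. T cells were split by Trdc, Foxp3, Zbtb16, Ikzf2, Cd8b1, Cd4 and naive or memory genes, and NK cells and ILC1 by markers such as Eomes and Cma1 against Cd200r1 and Itga1. The 1079 cells without a class stayed out of the comparisons. Doublets were kept; Scrublet in scanpy 1.11.5 called 339 of 10366 cells (3.27%), with 0 among NK cells, ILC1, naive-type CD8 T cells, cDC1 and Cd209a dendritic cells, 10 among plasmacytoid dendritic and 18 among Kupffer cells. Empty droplets, which would show free RNA, were not analysed here; B lineage cells stand beside low values as a class not known for these receptors.

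UMI were summed per class. A gene counted as changed when CPM + 1 differed at least 2-fold, among genes with at least 10 CPM in either class; with 1 sample no test was run. Shares were compared after thinning each cell to 1000 UMI, and pairs of genes at 2000 UMI, leaving out shallower cells. A count of 0 was read as at most 3. All 10 members are described, with the 3 genes of most similar pattern computed for each member and the closest of these named. The members, gene lists and gates were chosen with earlier results of these data known. The 2-fold call and the interval of CPM ratios were tested on simulated Poisson sums of NK cells and ILC1. That simulation had no spread between cells and did not cover gating, thinning, pairs of genes or correlations. Alternatives were a 5% mitochondrial limit, at least 1000 UMI, doublets removed, purity of 5 and 2 times, thinning, totals without mitochondrial, ribosomal protein and haemoglobin genes, a pseudocount of 10 CPM and per-cell means.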

Additional observations from a re-analysis of the deposited data

Results flagged for a closer look

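The 10 receptors together were also present in cells and barcodes that no comparison used, above what a count of 0 allows. The 1079 cells without a class held 7580 UMI of them, 737 CPM (721 to 754), against 68.2 CPM (63.7 to 72.9) in B lineage cells. Among these, 194 cells in which T and group 1 markers were the 2 leading lineages reached 3956 CPM (3831 to 4084), and 167 cells with under 2 marker UMI reached 1852 CPM (1737 to 1973). The 826 barcodes left out by the gene or mitochondrial limit held 380 receptor UMI, 139.9 CPM (126 to 155). Scrublet called 187 of the 1079 cells without a class (17.3%) doublets; their part in these levels was not tested.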

How the results depend on the processing

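Of 350 alternative values, 301 stayed within the limits set and 49 moved; 0 reversed. The count of members at least 2-fold higher in NK cells than in ILC1 was 1 and became 2 when cells were thinned to 1000 UMI. Most single values that moved did so by thinning (16) or by a pseudocount of 10 CPM (16), then by totals without mitochondrial, ribosomal protein and haemoglobin genes (9); removing doublets, a minimum of 1000 UMI and per-cell means moved 0. Klrk1 in cDC1 ranged from 62.5 CPM (thinned) to 216 CPM (totals without those genes), Klrd1 in naive-type CD8 T cells reached 303 CPM with those totals, and Klrg1 in regulatory T cells was 0 when thinned. Innate-like T cells had 9 members higher with a 5% mitochondrial limit or with those totals, and 7 when thinned; Cd209a dendritic cells had 4 when thinned. Genes called over the whole matrix went from 791 higher and 676 lower for ILC1 over NK to 1878 and 1883 when thinned and 403 and 299 with a pseudocount of 10 CPM. For Cd209a dendritic cells over classical monocytes they went from 777 and 860 to 1887 and 2025 when thinned and 363 and 484 with that pseudocount. For memory-type over naive-type CD8 T cells thinning gave 1687 and 658 and the pseudocount 694 and 156; for innate-like over naive-type CD4 T cells they gave 1959 and 1253, and 725 and 213. A purity of 5 times gave 1267 genes higher in ILC1. Totals without those genes turned 1211 higher and 301 lower genes of memory-type over naive-type CD8 T cells into 851 and 826, moved the median log2 ratio of innate-like over naive-type CD4 T cells from 0.20 to -0.04 and the split from 1254 and 465 to 1147 and 897. The cause of these shifts was not tested. No paired analysis was possible because the 2 samples hold 1 matrix. The 57 ILC1 and 48 cDC1 limit the precision of their values.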
